A study of Mus musculus with 4 samples.

Results

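Open chromatin was examined at 6 genes of the intermediate filament cytoskeleton in retinal endothelial cells of control mice and of mice with Zeb1 knockdown. The genes were Vim (vimentin), Nes (nestin) and the simple keratins Krt7, Krt8, Krt18 and Krt19, out of 21631 protein-coding genes on the autosomes and X. They were taken by name, and every listed peak that overlapped the gene body or the 10 kb on either side of it was collected from each library. That gave 22 peaks, which merged into 9 regions of the 25263 in the whole data set. No peak was shared between the windows of the 4 simple keratins. The start region of Vim was open in all 4 libraries and that of Nes in 3. None of the 4 simple keratins had a peak within 1 kb of either gene end in any library. Both classes are common: 51.5% of coding genes had no such peak in any library. Of the 10499 coding genes with one, 43.1% had it in all 4.

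The assay was ATAC-seq, in which a transposase cuts accessible DNA. The mice were C57BL/6, labelled P16 (postnatal day 16), and 2000 endothelial cells sorted from retina by FACS went into each library. There were 2 libraries from mice given as genotype control, and 2 from mice given as Zeb1 knockdown, called Zeb1-CKO in the titles. The driver of the knockdown, any alleles that both groups share and the number of animals behind each library are not given in the sources used here, so replicates of 1 group may differ for technical reasons only.

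Intermediate filaments are rope-like polymers that give cells mechanical strength. Simple epithelia build them from pairs of one type II keratin (Krt7, Krt8) and one type I keratin (Krt18, Krt19), whereas mesenchymal and endothelial cells use vimentin, and nestin co-assembles with vimentin in progenitors and growing vessels. A swap between keratins and vimentin is a textbook feature of transitions between the epithelial and the mesenchymal state, and Zeb1 is known as a repressor of epithelial genes that binds the E2-box, CACCTG on one strand and CAGGTG on the other.

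The bases just before the start of 5 members are shown because Zeb1 is known to act on this motif and because the start is where the filament genes differed in these lists. Each line gives the 250 bases before the annotated start on the gene's own strand, 5′ to 3′, from the RefSeq table on GRCm38.p6 (the assembly whose chromosomes are those of mm10), with every E2-box letter match in capitals.
Vim (chr2:13574061-13574310, plus strand): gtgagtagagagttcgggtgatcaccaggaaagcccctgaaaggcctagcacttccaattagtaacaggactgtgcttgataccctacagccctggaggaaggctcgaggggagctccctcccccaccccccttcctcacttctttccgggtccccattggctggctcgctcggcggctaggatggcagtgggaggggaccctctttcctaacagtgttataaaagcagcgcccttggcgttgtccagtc
Nes (chr3:87970843-87971092, plus strand): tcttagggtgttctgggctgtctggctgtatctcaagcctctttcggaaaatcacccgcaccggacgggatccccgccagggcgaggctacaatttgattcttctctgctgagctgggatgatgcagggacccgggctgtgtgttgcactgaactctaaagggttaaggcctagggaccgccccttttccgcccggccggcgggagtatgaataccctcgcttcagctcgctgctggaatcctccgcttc
Krt7 (chr15:101412153-101412402, plus strand): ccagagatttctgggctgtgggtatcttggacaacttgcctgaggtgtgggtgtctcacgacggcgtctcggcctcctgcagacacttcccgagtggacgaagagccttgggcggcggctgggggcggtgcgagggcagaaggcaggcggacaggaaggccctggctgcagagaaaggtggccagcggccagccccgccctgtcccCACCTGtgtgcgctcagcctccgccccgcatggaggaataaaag
Krt8 (chr15:102004343-102004592, minus strand): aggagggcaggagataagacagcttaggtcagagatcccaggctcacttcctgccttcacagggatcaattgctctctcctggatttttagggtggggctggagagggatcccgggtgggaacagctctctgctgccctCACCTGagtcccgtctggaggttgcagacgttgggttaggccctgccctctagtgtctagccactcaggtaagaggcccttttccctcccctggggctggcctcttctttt
Krt18 (chr15:102027966-102028215, plus strand): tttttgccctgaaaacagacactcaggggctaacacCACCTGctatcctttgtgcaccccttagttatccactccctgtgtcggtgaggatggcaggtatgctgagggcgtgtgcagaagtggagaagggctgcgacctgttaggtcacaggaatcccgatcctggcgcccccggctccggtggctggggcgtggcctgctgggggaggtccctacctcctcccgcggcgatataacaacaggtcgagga

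The 3 keratin promoters shown each held 1 match to the E2-box letters and the Vim and Nes promoters held 0. In Krt7 the match began at position -44, in Krt8 at -111 and in Krt18 at -214, counted in bases back from the gene start. Each was written CACCTG on the gene's strand. Over 17268 coding promoters of the same length, 16.7% held at least 1 match on either strand. A match is a description of these letters and was not tied to binding here.

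The promoters also differed in CpG dinucleotides. Vim had 8, Nes 15, Krt7 16, Krt8 3 and Krt18 12, and the median coding promoter had 10. Among the 5780 promoters with at most 4 CpG, as at Krt8, 92.8% had no peak within 1 kb of the start in any library. For 2405 promoters with 10 to 14 CpG, the band of Krt18, that share was 29.8%, and for 2373 promoters with 15 to 19, the band of Krt7 and Nes, it was 19%. Krt7 and Krt18 thereby stood with the smaller part of their CpG band and Krt8 with the larger. Vim, with 8, lay in a band of 2687 promoters of which 11.4% had a start peak in all 4 libraries.

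The libraries differed in the length of their peak lists, which sets what any of them can show. Control 1 and control 2 had 7608 and 13672 peaks, and knockdown 1 and knockdown 2 had 13689 and 19886. Read depth is unknown, so where no peak is listed the reads may have been too few to call one. In such bulk lists, fewer open cells and less cutting per cell cannot be told apart. With 2 libraries against 2, a two-sided exact permutation test has 6 arrangements and cannot go below p = 0.333, so no gene or region was tested on its own. A region or gene is called knockdown-only when it has a peak in each knockdown library and in no control, and control-only in the reverse case. Of 12 defining endothelial genes, 4, 6, 7 and 7 were listed at a gene end in control 1, control 2, knockdown 1 and knockdown 2, with Cdh5 (VE-cadherin), Tie1, Cldn5 and Clec14a in every library. Of 12 photoreceptor genes, 1, 10, 1 and 8 were listed at a gene end in the same order, so the replicate 2 libraries stood apart from the replicate 1 libraries there and listed more photoreceptor than endothelial genes. Over gene body and 10 kb flanks the counts were 10, 12, 12 and 12 for the endothelial genes and 4, 12, 6 and 12 for the photoreceptor genes.

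**Figure D1:**
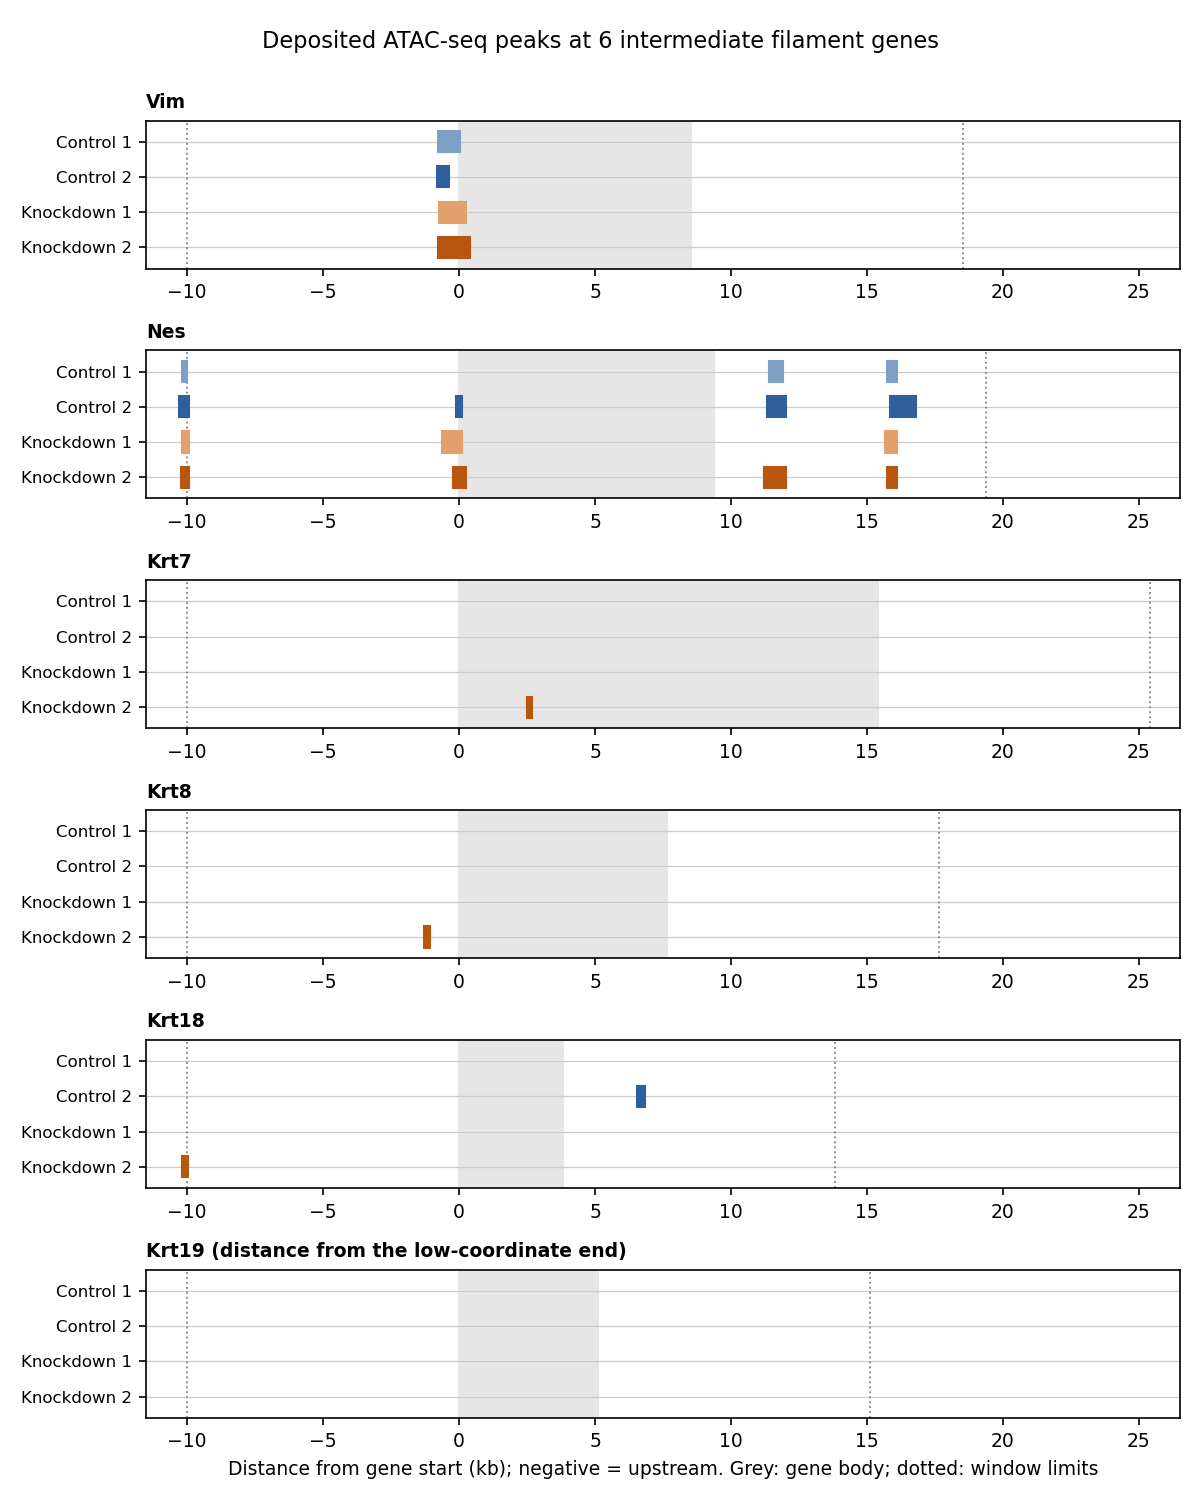
Peaks of each library (coloured bars, drawn to scale) against distance from the gene start in kb for the 6 genes, with the gene body in grey and the window limits dotted. Vim and Nes carry peaks in every library, the keratin windows hold 0, 1, 0 and 3 peaks in control 1, control 2, knockdown 1 and knockdown 2, and Krt19 holds none.

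Of the 9 member regions, 0 were knockdown-only and 0 were control-only. Over all 25263 merged regions, 10.1% were knockdown-only and 0.158% control-only, so with 9 regions counts of 0 are near the background. The windows held 4 peaks in control 1, 6 in control 2, 4 in knockdown 1 and 8 in knockdown 2. The groups overlapped, and the order followed the replicate number, with both replicate 2 libraries above both replicate 1 libraries. Together the peaks covered 1844, 2994, 2426 and 3834 bp in the same order of libraries.

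Members held by all 4 libraries were 3 of the 9 regions, against 20.3% of all regions. They were the Vim start and 2 regions of the Nes window, which lay nearer an end of another coding gene (Crabp2 and Bcan) than of Nes. Another 4 of the 9 were held by a single library, a class that made up 41.9% of all regions, and all 4 lay in keratin windows. Vim and Nes were the 2 members listed at a gene end in any library, and 0 of them were knockdown-only, where 7.82% of the 10499 coding genes with such a peak were, and 0 were control-only, against 0.0667%. Over gene body and flanks, 5 members had a peak in some library, and 0 of them were knockdown-only and 0 control-only, beside 6.01% and 0.288% of the 14242 coding genes with any peak there.

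Vimentin is the main filament protein of endothelial and mesenchymal cells. Its gene lies on the plus strand of chromosome 2 from 13574311 to 13582826 (mm10), and its single region, 13573494 to 13574706, spanned the gene start, from position -817 to 395 relative to it. Of the 10499 genes with any gene-end peak, 43.1% were, like Vim, held there by all 4 libraries. No other peak lay in the gene or its flanks in any library.

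The Vim peak was 793 bp wide in control 1, 453 bp in control 2, 987 bp in knockdown 1 and 1161 bp in knockdown 2. It was wider in both knockdown libraries than in both controls, and the groups did not overlap. Among the 5120 regions held by all 4 libraries, 50% were likewise wider in both knockdown libraries, so the Vim width follows the common pattern. The upstream edges lay within 71 bp of each other, while the downstream edges spread over 760 bp. In control 2 the peak stopped 365 bp before the gene start, and in the other 3 libraries it ran across it, by 17 bp in control 1, 240 bp in knockdown 1 and 395 bp in knockdown 2. The stretch common to all 4 peaks was 382 bp and lay upstream of the start.

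Each list ranks its own peaks by the authors' −log10 p, and ranks are given here as percent from the top. The Vim peak stood at 36.5% in control 1, 67.1% in control 2, 28.0% in knockdown 1 and 56.9% in knockdown 2. Both replicate 1 libraries ranked it higher than both replicate 2 libraries, and the genotypes overlapped. The authors' −log10 q for it was 3.58, 3.13, 6.89 and 3.65 in the same order, so Vim stayed in all 4 lists at a −log10 q of at least 3. With every list shortened to its 7608 strongest peaks, it was kept in control 1 and knockdown 1 only. When a library had to cover at least 50% of the merged region, control 2 no longer held the Vim start.

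Over all merged regions, 10.1% were knockdown-only. Outside the 10 kb flank, a region 15328 bp upstream of Vim was knockdown-only, the single one within 25 kb of any member. Its nearest coding gene end was that of Trdmt1, 13931 bp away and so nearer than Vim. It was chosen after its values were seen. It lay at chromosome 2 from 13558728 to 13558983, at the end of the long noncoding gene Gm9875, at 64.9% of the list in knockdown 1 and 27.3% in knockdown 2.

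**Figure D2:**
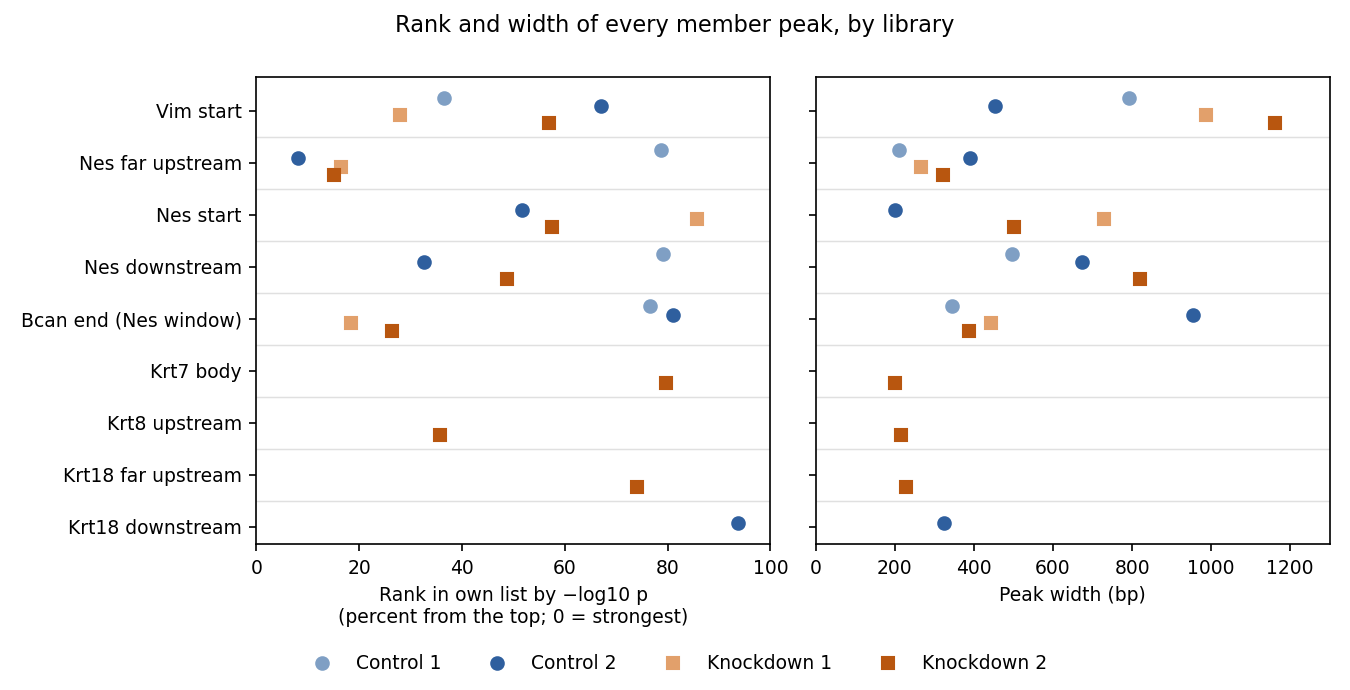
Rank of each member peak in its own list (left, percent from the top by −log10 p) and its width in bp (right), by region and library. The Vim start was wider in both knockdown libraries, from 987 to 1161 bp against 453 to 793 bp, and the keratin regions have 1 point each.

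Nestin marks neural progenitors, reactive glia and growing vessels. Nes lies on the plus strand of chromosome 3 from 87971093 to 87980451 (mm10) and had 3, 4, 3 and 4 peaks in control 1, control 2, knockdown 1 and knockdown 2, in 4 regions. No listed peak lay within the gene body beyond 271 bp from the start, where an intronic enhancer is known from neural progenitors.

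The start region of Nes (87970467 to 87971364) was held by control 2, knockdown 1 and knockdown 2, and not by control 1. This pattern is frequent in general: 16.6% of all regions were missing from control 1 alone, the shortest list. The peak was 200 bp wide in control 2, from position -105 to 94 around the start. It was 730 bp wide in knockdown 1, from -626 to 103, and 502 bp wide in knockdown 2, from -230 to 271. All 3 peaks covered the start itself, and the control peak was the narrowest. They ranked at 51.7% in control 2, 85.7% in knockdown 1 and 57.5% in knockdown 2, so the widest peak was the weakest in its list. When a library had to cover at least 50% of the merged region, control 2 no longer held it and Nes became knockdown-only at its start. The share of all coding genes that were knockdown-only under that setting is not given here.

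The far-upstream region of Nes lay at 87960783 to 87961172, 9921 bp before the start, inside the long noncoding gene Gm32518 and across the window limit. Its nearest coding gene end was that of Crabp2, 7411 bp away and so nearer than Nes. In control 1 only 5 bp of the peak were inside the window. It was held by all 4 libraries, at 78.8% of the list in control 1, 8.08% in control 2, 16.5% in knockdown 1 and 15% in knockdown 2. Its widths were 211, 390, 265 and 321 bp in the same order, and the groups overlapped in both measures. This was the best-ranked member region in control 2 and in both knockdown libraries, and the one that all 4 libraries still held at equal list length.

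The downstream region of Nes (87982298 to 87983118), 1847 bp past the gene's far end, was held by both controls and knockdown 2. Knockdown 1 had no peak there, a pattern found in 0.4% of all regions. The peak was 496 bp wide in control 1, 673 bp in control 2 and 821 bp in knockdown 2, and it ranked at 79.1%, 32.7% and 48.7%. At equal list length it was held by both controls and neither knockdown library, the single control-only member region under that setting. The share of all regions that were control-only at equal list length is not given here.

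The last region in the Nes window (87986757 to 87987894) overlapped the 3′ end of Bcan, on the minus strand, which encodes the neural matrix proteoglycan brevican. That overlap was read on the merged region. Only the control 2 peak reached 87987894, and the peaks of the other libraries ended at 87987187 to 87987209. All 4 libraries held the region. It ranked at 76.5% in control 1 and 81.0% in control 2, against 18.4% in knockdown 1 and 26.4% in knockdown 2. Both knockdown libraries ranked it higher than both controls, and the groups did not overlap. Of the 5120 regions held by all 4 libraries, 37.6% were ranked higher in both knockdown lists in this way. Widths did not follow the ranks: 344, 955, 444 and 387 bp in the same order of libraries, with the widest peak in control 2. The authors' −log10 q was 1.82 and 2.46 in the controls and 9.11 and 6.81 in knockdown 1 and knockdown 2, so with a −log10 q of at least 3 this region became knockdown-only. The share of all regions that were knockdown-only past that limit is not given here.

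Vim and Nes are also made by retinal astrocytes, Muller glia and pericytes. Of 12 glial genes, 3, 3, 2 and 3 were listed at a gene end in control 1, control 2, knockdown 1 and knockdown 2, with Glul and Clu in all 4, Rlbp1 in control 1 and knockdown 2, Sox9 in control 2, and none in any library for Gfap, Aqp4, Slc1a3, Sox2, Dkk3, Pax2, S100b and Abca8a. Of 12 pericyte and smooth muscle genes, 0, 1, 1 and 1 had one, Myh11 in control 2 and knockdown 2 and Des in knockdown 1, and the other 10, among them Pdgfrb, Rgs5, Cspg4 and Acta2, had none at all there. With the 10 kb flanks and the gene body the counts were 3, 3, 3 and 5 for the glial genes and 0, 2, 3 and 5 for the pericyte genes. Of the 6 pericyte and smooth muscle genes with any peak there, 1 (Notch3) was knockdown-only, beside 6.01% of coding genes with one. The part of these cells in the Vim and Nes peaks was not tested.

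Krt8 and Krt18 form the first keratin pair of embryonic and simple epithelia, and their genes lie side by side on chromosome 15. Krt8 is on the minus strand from 101996711 to 102004342 (mm10), and Krt18 on the plus strand from 102028216 to 102032026. The Krt8 window held 1 peak, in knockdown 2 alone, at 102005419 to 102005633. It was 215 bp wide, 1077 bp upstream of the Krt8 start and so just beyond the 1 kb limit of a gene end, and 510 bp from an end of the long noncoding gene Gm36026. It ranked at 35.7% of its list with an authors' −log10 q of 5.45, the best-ranked of the 4 keratin peaks and the one that remained at a −log10 q of at least 3 and at equal list length.

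The Krt18 window held 2 regions, each in a single library. In control 2 a 323 bp peak lay 2720 bp past the gene's far end (102034746 to 102035068), at 93.7% of its list. In knockdown 2 a 227 bp peak lay 9958 bp upstream (102018032 to 102018258), at 74.1% of its list, with 43 bp inside the window. Control 1 and knockdown 1 listed no peak in the window. Between the 2 genes, just outside both windows, knockdown 2 alone had another region at 102016147 to 102016431.

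Krt7, a keratin of ducts and glands, lies on the plus strand of chromosome 15 from 101412403 to 101427806. Its window held 1 peak, in knockdown 2, at 101414896 to 101415095. This lay in the gene body 2493 bp past the start, was 200 bp wide and stood at 79.7% of the list. The other 3 libraries listed none.

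Krt19, a keratin of ducts and other simple epithelia that lacks most of the usual tail domain, lies on chromosome 11 from 100140810 to 100145926. Its window held no peak in any library. Of all coding genes, 34.2% likewise had no peak in gene body and flanks in any library. None of the 4 keratins had a peak within 1 kb of a gene end, a class that held 51.5% of coding genes. With gene ends of 3 kb this absence ended for Krt7 and Krt8 (knockdown 2 alone) and Krt18 (control 2 alone), and remained for Krt19. All 4 peaks in keratin windows came from replicate 2 libraries, 1 from control 2 and 3 from knockdown 2, in which 10 and 8 of 12 photoreceptor genes were listed at a gene end, against 1 in each replicate 1 library, and knockdown 2 has the longest list. The part of either in the keratin peaks was not tested.

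**Figure D3:**
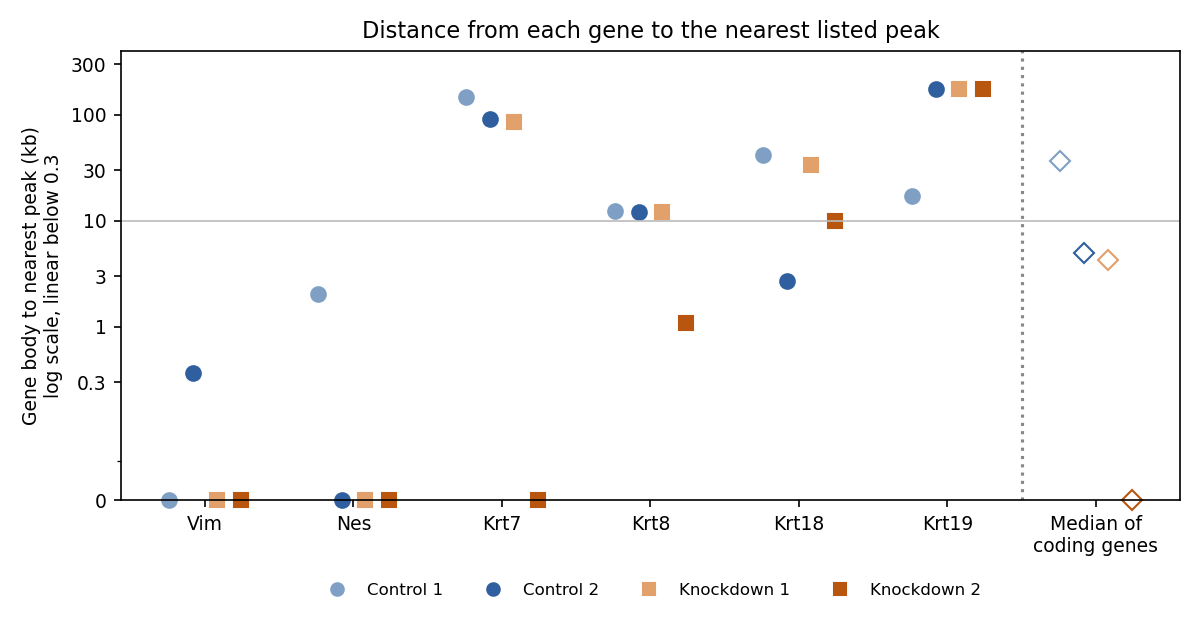
Distance in kb from each gene body to the nearest listed peak, by library, on a log scale that is linear below 0.3 kb, with the median over 21631 coding genes at the right (open diamonds). Vim and Nes lie at 0 to 2047 bp, and Krt19 lies at 173633 bp or more in every library but control 1.

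The distance from each gene body to the nearest peak needs no window. For Vim it was 365 bp in control 2 and 0 in the other libraries, and for Nes 2047 bp in control 1 and 0 in the others. The median coding gene was 36497 bp from a peak in control 1, 5009 bp in control 2, 4296 bp in knockdown 1 and 0 in knockdown 2. For Krt7 the distance was 145477 bp in control 1, 91298 bp in control 2, 84731 bp in knockdown 1 and 0 in knockdown 2.

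For Krt8 the distances were 12253, 12190 and 12145 bp in control 1, control 2 and knockdown 1, and 1077 bp in knockdown 2. In the first 3 libraries, the same region was nearest, at chromosome 15 from 101983962 to 101984653, inside the annotated Krt78 gene. It was held by all 4 libraries, at 40.2%, 6.69%, 26.3% and 15.9% of their lists. For Krt18 the distances were 41572, 2720, 33742 and 9958 bp in control 1, control 2, knockdown 1 and knockdown 2. For Krt19 the nearest peak was 17003 bp away in control 1 and 173771, 173633 and 173758 bp away in the others. Krt7 in knockdown 2 was thus as near a peak as the median gene. Krt8 and Krt19 in control 1 and Krt18 in control 2 were nearer than the median gene of the same library. In control 1, 59.9% of coding genes were farther from a peak than Krt19, against 17.2%, 16.4% and 13.8% in control 2, knockdown 1 and knockdown 2.

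The other keratin genes had few peaks as well. Of 49, 0, 0, 0 and 2 were listed at a gene end in control 1, control 2, knockdown 1 and knockdown 2. That left 47 without such a peak in any library, against 51.5% of coding genes. Among the 2 with one, 0 were knockdown-only or control-only, beside 7.82% and 0.0667% of coding genes with one. The 2 genes were Krt10 and Krt23, both chosen after their values were seen. Over gene body and flanks, 46 of the 49 had no peak in any library, against 34.2% of coding genes. The one held by all 4 was Krt78, through the region inside it. The span from the first to the last of the 27 keratin genes on chromosome 11 is 1037191 bp long and held 1, 0, 0 and 2 peaks. The span of the 26 on chromosome 15, 683712 bp long, held 1, 2, 3 and 7 peaks. The number of peaks in stretches of that length elsewhere is not given here. The span counts therefore do not show whether either span was poor in peaks.

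Other epithelial genes held peaks in the knockdown libraries. A list of 12, among them Cdh1 (E-cadherin), Epcam, Cldn3, Cldn4, Esrp1 and Grhl2, had a gene-end peak in 0 and 0 cases in the controls and in 12 and 12 in the knockdown libraries. Over gene body and 10 kb flanks the counts were 2, 4, 12 and 12 in control 1, control 2, knockdown 1 and knockdown 2. There, 8 of the 12 were knockdown-only, and others, such as Esrp1, also had a peak in the controls. Among coding genes with any peak at the place in question, 7.82% were knockdown-only at a gene end and 6.01% over gene body and flanks. These 12 were listed because they were already known to have that pattern here, so the count describes them and tests nothing. Beside them, the simple keratins had a gene-end peak in 0 of 4 in every library, and a peak in the window in 0, 1, 0 and 3 of 4.

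Among the remaining filament genes, those of the nuclear lamina were open throughout and those of neurons and muscle mostly were not. Each of the 3 lamins, Lmna, Lmnb1 and Lmnb2, which line the inner nuclear membrane in most cells, was listed at a gene end in every library. Of the 8 other type III and IV genes, 1, 1, 3 and 2 had one. Synm (synemin, which co-assembles with vimentin and desmin) was held by all 4, at 68.2%, 62.3%, 34.2% and 18.8% of the lists. Nefh, the heavy neurofilament subunit of neurons, was knockdown-only, at 89.9% of the list in knockdown 1 and 72.5% in knockdown 2. It was 1 of the 3 in this list with any gene-end peak, beside 7.82% of all coding genes with one. Des (desmin, the filament of muscle and pericytes) had a gene-end peak in knockdown 1 alone (named after its values were seen), and Prph, Nefl, Nefm and Ina had no peak within 10 kb in any library. Of the lens filament genes, Bfsp1 was held by all 4 libraries at a gene end and Bfsp2 by none.

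Linker proteins tie filaments to junctions and to the cytoskeleton. Of 16 linker genes, 2, 3, 5 and 8 were listed at a gene end in control 1, control 2, knockdown 1 and knockdown 2. Jup (plakoglobin) and Pkp4 were held by all 4, with Jup at 15.2%, 4.75%, 1.02% and 1.20% of the lists. Tchp (trichoplein) was the 1 knockdown-only gene at a gene end, at 79.0% and 89.4% of the lists in knockdown 1 and knockdown 2, 1 of the 9 linkers with any gene-end peak, beside 7.82% of coding genes with one. Over gene body and flanks, 3 of 16 were knockdown-only: Tchp, Pkp1 (a desmosomal plakophilin) and Fam83h (a keratin-binding protein). The share over all coding genes with a peak there was 6.01%. All 16 had a peak there in at least 1 library, and 8 in all 4. Dsp (desmoplakin), which anchors keratins to desmosomes, had a gene-end peak in knockdown 2 alone, the longest list, as did Dst, Ppl and Dsg2. Over gene body and flanks, Dsp and Dst had a peak in all 4 libraries, and Ppl and Dsg2 in knockdown 2 alone. These genes were likewise named after their values were seen.

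**Figure D4:**
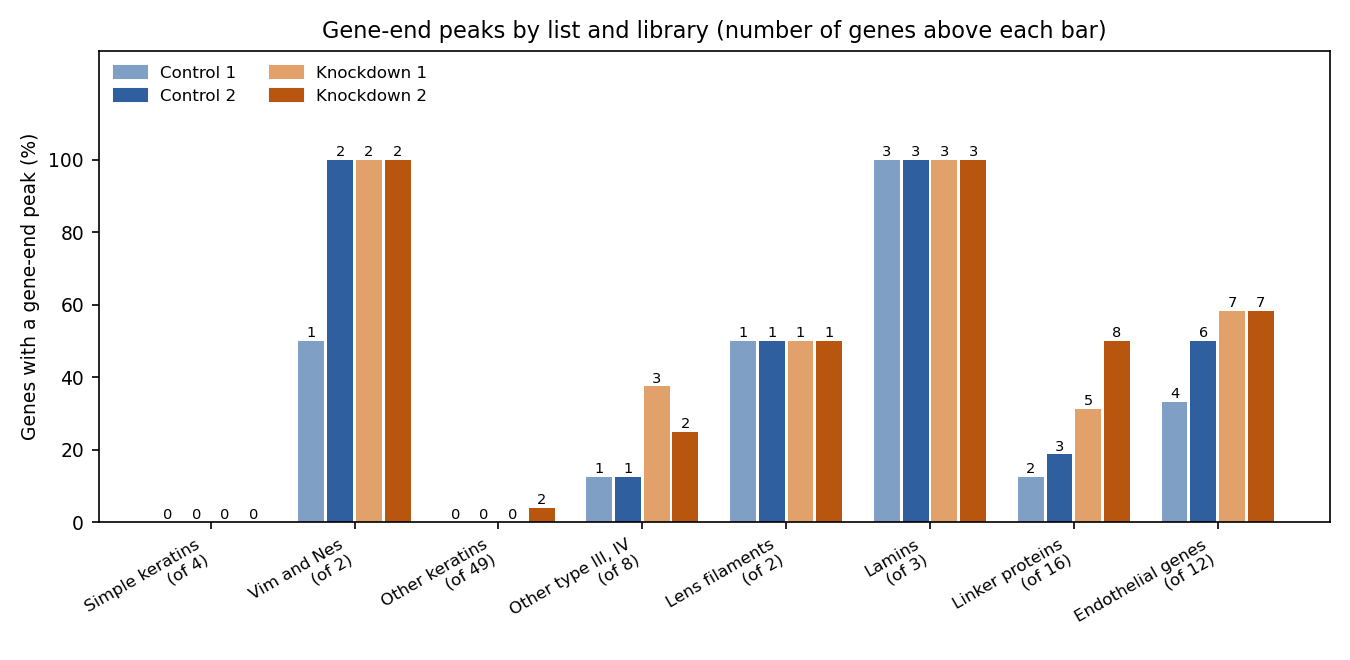
Share of the genes of each list with a peak within 1 kb of a gene end, by library, with the number of genes above each bar. The simple keratins are at 0 of 4 in every library and the lamins at 3 of 3.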

How the data were processed

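ATAC-seq peak lists of 4 libraries were used, 2 per group, with groups and replicate numbers from the sample titles. Per the submitters' processing notes the authors worked on mm10 with MACS2 2.1.1 and Bowtie2 2.3.2, besides Trimmomatic 0.36, SAMtools 1.3, Picard 2.9.2 and bedtools 2.26.0. The deposited lists, 1 per library and not pooled, give per peak −log10 p and −log10 q (all q values above 1 on that scale), the fold enrichment as a ratio to background, and a score that, for all but 4 of 54855 peaks, is 10 times the −log10 q cut to a whole number and limited to 1000. Settings, the filter and any shift for the transposase offset are not given in the sources used here. These columns only ranked or filtered peaks within a list.

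With Python 3.11.15, overlapping or touching peaks of the 19 autosomes and X were joined into regions, and 1 bp of overlap counted. Genes came from RefSeq on GRCm38.p6, and strand and start from its promoter table, which held 5 of the 6 members. The functions were tested on simulated lists. All 6 members and all their regions are named, with other filament genes that had a peak in all 4 libraries or in 1 group only. The members and lists were chosen with earlier results of these data known. Alternatives were lists of equal length, peaks past a −log10 q of 3, each library left out, 50% cover, peaks within 1 kb merged, wider windows and the replicate number as a block.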

Additional observations from a re-analysis of the deposited data

How the results depend on the processing

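Most counts were 0 or small, so a single region moves them. Shares over all regions or genes are not given for the alternative settings, so the counts below have no background beside them. Knockdown-only member regions, 0 as reported, numbered 1 (the last region in the Nes window) with a −log10 q of at least 3. They numbered 1 when at least 50% of a region had to be covered (the Nes start). With gene ends of 3 kb and flanks of 25 kb the count was 1 (upstream of Vim). Leaving out each library in turn gave 0 to 3, the highest without knockdown replicate 1, when a peak in knockdown 2 alone sufficed. Control-only regions, 0 as reported, numbered 1 at equal list length and 0 to 1 with a library left out. Regions in all 4 libraries, 3 as reported, numbered 1 with a −log10 q of at least 3, 1 at equal list length and 1 at 50% cover, and 3 to 4 with a library left out. Genes knockdown-only at a gene end, 0 as reported, numbered 1 (Nes) at 50% cover and 0 to 1 with a library left out, again Nes, without control replicate 2. In the windows the count of 0 became 0 to 2 with a library left out, Krt7 and Krt8 without knockdown replicate 1. No keratin became knockdown-only at a gene end under any of these settings, but with gene ends of 3 kb Krt7, Krt8 and Krt18 were no longer without a gene-end peak, each in 1 library, and Nes was held by all 4. The replicate block, which asks for the difference within each replicate number, is the same rule as knockdown-only by construction and gave 0 regions and 0 genes, with 3 regions in all 4. Depth is unknown, and it limits every statement about a missing peak.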
